A study of Homo sapiens with 9 samples.

Results

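The 6 regions described here are stretches of human chromosomes 6, 1, 17, 16 and 14 in which transfer RNA (tRNA) genes lie close together. On GRCh37 (hg19) they are chr6:26290000-27760000, chr6:27870000-28980000, chr1:161360000-161600000, chr17:8020000-8130000, chr16:3200000-3245000 and chr14:21070000-21160000. Every alignment that lay wholly inside one of them, on either strand, was a member, so that positions and no measured value chose the members. In all, 16,247 of 3,688,019 alignments (0.441%) were members. The data are small RNA reads of K562, an untreated chronic myelogenous leukemia cell line of human origin with erythroid features, made from total RNA after selection of inserts of 20 to 40 nt. The 3 batches of K562 cells are pooled in the deposited values, so each value below is that of 1 pooled sample, has no replicate error and was put to no test. Intervals are Wilson 95% intervals and cover counting error only, since the reads carry no molecular identifiers. The 6 HEK293 samples of the same study were not analysed here.

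A tRNA gene is transcribed by RNA polymerase III, which starts shortly before the gene and stops at a run of T bases downstream of it. The precursor therefore carries a 5′ leader, which RNase P removes, and a 3′ trailer, which RNase Z (ELAC2 in human nuclei and mitochondria) cuts off after the last base of the tRNA body, before the sequence CCA is added to the new 3′ end. The U tail of the precursor is bound by the La protein (SSB). Short RNAs that begin where RNase Z cuts and end in a run of U are known as trailer fragments, whereas fragments of the mature tRNA begin at its 5′ end or finish at its 3′ end.

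The tRNA genes were found by a search of the GRCh37 sequence for the 4 stems and the conserved bases of the cloverleaf, since the gene annotation used here lists no nuclear tRNA gene on this build. The search gave 192 genes, each named here by the amino acid and the anticodon read from its sequence. They numbered 75 and 43 in the chromosome 6 regions in the order given above, 30 on chromosome 1, 16 on chromosome 17, 14 on chromosome 16 and 14 on chromosome 14. By the same annotation, 130 of the 192 were intergenic and 62 lay inside another gene. Each alignment on the strand of a tRNA gene, within 50 nt of it, was classed by its ends as leader, 5′ end fragment, internal, 3′ end fragment, trailer (start within 2 nt of the first base after the gene) or later trailer (start further downstream).

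The most abundant trailer species of the 10 genes with the most trailer reads are shown here because they carry most of the reads of the 6 regions. Each line runs 5′ to 3′ on the strand of the gene. It holds the last 15 bases of the gene and any base between the gene and the trailer in lower case, the trailer in capitals, and the next 12 genomic bases in lower case.
Ile-AAT, chr6:27144994-27145067, minus strand: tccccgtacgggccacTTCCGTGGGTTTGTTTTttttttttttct
Ile-AAT, chr6:27655967-27656040, plus strand: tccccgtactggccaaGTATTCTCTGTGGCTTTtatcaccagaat
Ser-GCT, chr17:8090184-8090265, plus strand: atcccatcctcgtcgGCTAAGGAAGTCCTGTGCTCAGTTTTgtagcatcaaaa
Arg-ACG, chr6:26328368-26328440, plus strand: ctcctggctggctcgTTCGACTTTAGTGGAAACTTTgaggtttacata
Gly-TCC, chr1:161432166-161432237 and 3 further copies, minus strand: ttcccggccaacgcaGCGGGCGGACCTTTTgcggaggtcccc
Thr-TGT, chr14:21099319-21099391, minus strand: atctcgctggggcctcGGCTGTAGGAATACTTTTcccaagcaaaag
Arg-CCT, chr16:3202901-3202973, plus strand: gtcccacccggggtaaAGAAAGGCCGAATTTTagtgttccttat
In each of these lines the capitals begin 1 or 2 bases after the gene and finish in at least 3 T.

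The deposited read count of an alignment was divided by its number of near neighbours, and the quotient is called recovered reads. Near neighbours are the alignment itself and all others on its strand with start and end shifted by no more than 3 nt together. The 6 regions held 1,702,860 of 47,670,688 recovered reads, a share of 3.57% (3.57 to 3.58), on 0.0990% of the reference length. This came to 556 recovered reads per kb, against 14.9 per kb elsewhere. Of the members, 63.1% rested on 1 recovered read, compared with 73.6% of all alignments. The cell line label was checked with erythroid genes, whose exons held a median of 20.8 reads of at least 18 nt per kb of exon, against 1.28 for all protein-coding genes. All 8 erythroid genes were above that median. Of 4 kidney-line markers (the series' other line is of kidney origin) 2 had any read, against 14,868 of 20,136 protein-coding genes.

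tRNA loci took nearly all reads of the 6 regions. On the strand of a tRNA gene and within 50 nt of it lay 1,634,057 reads, 96.0% (95.9 to 96.0) of the reads of the regions. Trailers made up 1,622,637 of these, which is 99.3% of tRNA locus reads, in 1514 alignments beside 127 genes. Later trailers followed with 9298 reads (0.569%) and leaders with 1900 reads (0.116%). Fragments of the tRNA body were nearly absent from the values. The 5′ end class held 220 reads (0.0135%), and the 3′ end and internal classes held 0 reads, for which counting error allows up to 3 reads. No alignment of either strand overlapped 190 of the 192 gene bodies. The methods of the study describe the removal of clusters that overlap RNA repeats, a group to which tRNA belongs, for part of its work. Whether reads on tRNA bodies were taken out before the values were made was not tested, so these values do not measure the level of mature tRNA or of its fragments.

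The 220 reads of the 5′ end class came from 1 gene, Ser-AGA at chr6:27499987-27500068 on the plus strand. They had a median length of 13 nt, and none of them had a sequence with only 1 exact match in the genome, so their origin from this gene cannot be told apart from the other matches. The same gene held 2 reads across its 5′ end. Antisense to tRNA loci were 1289 reads, of which 1170 lay beside Pro-AGG at chr14:21077495-21077566.

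The 5′ ends of trailers fell on 2 positions. Reads that start at the first base after the gene numbered 812,804 (50.1% of trailer reads), and reads that start at the second numbered 807,555 (49.8%). The third base began only 2277 reads (0.140%), and the last base of a gene began 1. Downstream of the gene, few reads thus began at any base but the first and the second. On the gene side nothing can be read, since a removal of reads that overlap tRNA bodies would leave the same 0.

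**Figure D1:**
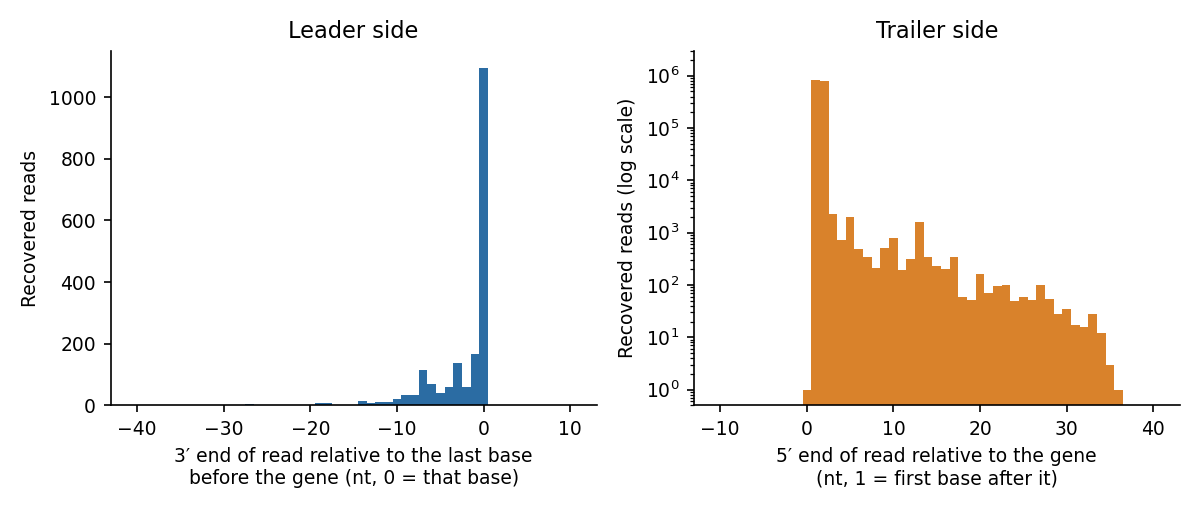
Recovered reads by the position of their ends, summed over the 192 tRNA genes. Left, 3′ ends of reads upstream of the gene against the last base before it, where 1096 reads ended; right, on a log scale, 5′ ends of reads against the gene end, where the first and the second base after the gene began 812,804 and 807,555 reads and the third 2277.

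Which of the 2 positions was used differed between genes and went with the first base after the gene. Of 66 genes with at least 100 trailer reads, 46 had more reads from the first base and 20 from the second. The 10 genes with C as the first base had 0 reads starting there and 554,230 at the second base, 99.8% of their trailer reads. Whether a removal of reads on tRNA bodies also took in the first base after these genes was not tested. Among the 21 genes with G as the first base, 98.6% of reads began at that G and 1 gene had more at the second base. With A there (20 genes) 36.3% of reads began at the first base and with T there (15 genes) 78.0%. The shares for A and T each rest on 1 gene. Ile-AAT at chr6:27655967-27656040 had 65,862 reads at the first base, an A, and 166,991 at the second, and without it the share for A was 57.1%. Without Arg-ACG at chr6:26328368-26328440, with 102,906 reads at the first base, the share for T was 50.7%. Leaving out the gene of most reads gave 98.3% for G and 0 reads for C. This grouping by base was made after the values were seen. The cause of the split was not tested.

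The 3′ ends of trailers were marked by T. Of trailer reads, 98.3% ended in T, 96.8% in at least 3 T, 62.3% in at least 4 and 12.3% in at least 5. In 175 of the 192 genes a run of at least 4 T began within 60 nt after the gene, and these genes held 93.1% of trailer reads. In them, 96.9% of trailer reads ended inside the first such run, 0.749% before it and 2.37% after it. The fourth T of the run was the most used end, with 53.1% of reads, followed by the third (29.7%) and the fifth (12.1%). Thus most listed trailers stopped 3 to 5 bases into the run, also where the genome holds a longer one. In Ile-AAT at chr6:27144994-27145067 the run is 14 T long and the most abundant listed species ended after 4 of them. The study dropped reads with long stretches of 1 base before alignment, so trailers with longer T tails may be missing. Whether this removal shaped the ends was not tested.

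Not every abundant trailer ended in the first run. Among the 60 genes with at least 100 trailer reads and a run, the most abundant species ended inside the run in 41, before it in 8 and after it in 11. Another 6 genes had no run of 4 T in the 60 nt. Of these, Arg-ACG at chr6:26328368-26328440 had 103,738 trailer reads, and its most abundant species (21 nt, 96,900 reads, 93.4% of the gene's trailer reads) ended at a run of 3 T, as its line above shows. In Leu-CAG at chr1:161500132-161500214, a run of 4 T began 8 nt after the gene, and the most abundant species (24 nt, 3859 reads) passed it and ended at a later run.

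Trailers were shorter than most small RNAs of the cells. Median lengths were 17 nt (quartiles 16 and 18) for trailer reads and 17 nt (16 and 19) for all reads of the 6 regions, whereas reads elsewhere in the genome had a median of 22 nt (18 and 23). Lengths of 15 to 19 nt made up 71.5% of the reads of the regions and 23.9% of those elsewhere. Lengths of 20 to 24 nt, the size of miRNAs, made up 9.61% and 62.4%. A second, smaller group of 25 to 29 nt took 11.7% in the regions and 3.23% elsewhere. Few genes weighed heavily on the lengths in the regions. The 26-nt species of Ser-GCT at chr17:8090184-8090265 had 70,573 reads. The 17-nt species of 2 Ile-AAT genes had 262,826 and 120,896 reads. A 15-nt species listed at 4 Gly-TCC genes had 62,401 to 65,849 reads at each. Only 21.6% of the reads of the regions lay in the range of 20 to 40 nt for which inserts were selected, compared with 66.2% elsewhere. Of trailer reads, 72.7% had a sequence with 1 exact match in the genome. The study states that reads mapping to 1 place were kept.

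Few genes gave most trailers. The median gene had 8 trailer reads (quartiles 0 and 539), and 65 genes had none. At least 100 reads were found at 66 genes, at least 1000 at 38, at least 10,000 at 18 and at least 100,000 at 4. The top gene held 28.4% of trailer reads, the top 2 held 42.8%, the top 10 held 85.9% and the top 20 held 95.1%. The tenth gene had 29,967 trailer reads and the eleventh 25,738.

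Isoleucine tRNA genes led the list. Ile-AAT at chr6:27144994-27145067 (minus strand, intergenic) had 461,378 trailer reads, of which 262,826 were 1 species of 17 nt. The deposited values give this species 4,205,216 reads and 4,568,942 RPKM, because it has 16 near neighbours with itself included. Ile-AAT at chr6:27655967-27656040 (plus strand, intergenic) had 233,163 trailer reads, with 120,896 in a 17-nt species. The 11 Ile-AAT genes ranged from 0 to 461,378 reads with a median of 29, and the 14 genes for isoleucine together held 706,687 reads, 43.6% of all trailer reads.

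Ser-GCT at chr17:8090184-8090265 (plus strand, intergenic) followed with 136,583 trailer reads. Its most abundant species was 26 nt long with 70,573 reads, longer than the 17 nt of these 2 isoleucine genes. Thr-TGT at chr14:21099319-21099391 (minus strand, intergenic) had 63,456 trailer reads, 32,031 of them in an 18-nt species. Arg-CCT at chr16:3202901-3202973 (plus strand, intergenic) had 29,967, with 84.3% in a 16-nt species. For 15 arginine genes the sum was 193,643 reads (11.9%), and 9 of them had at least 1000, the most for any amino acid.

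On chromosome 1, 4 Gly-TCC genes on the minus strand had nearly equal counts. Those at chr1:161432166-161432237, chr1:161439547-161439618, chr1:161424756-161424827 and chr1:161417375-161417446 had 93,730, 91,507, 90,400 and 89,832 trailer reads. Their 15-nt trailer is the same sequence, shown above, and has 4 exact matches in the genome, so the copies cannot be told apart and only their sum of 365,469 reads can be read. All 4 lie in introns of the same gene (ENSG00000283360) on its strand. Also on chromosome 1, 4 Glu-CTC genes had 857 to 1011 trailer reads each and shared their most abundant species, a 24-nt trailer with 306 to 381 reads at each gene. It does not end in T and has 4 exact matches in the genome, so these copies too can be read only as their sum of 3768.

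Summed by amino acid, the order after isoleucine was glycine (22.6%), arginine, serine (9.39%), threonine (6.82%), alanine (1.45%) and valine (1.19%). Each of the other amino acids held less than 1% of trailer reads. Gene number did not give the order. The 19 leucine genes had 11,159 reads and the 15 proline genes 764, while histidine had 1 gene with 419. Within an amino acid 1 gene often held most reads, with 89.7% for serine, 95.9% for valine and 99.9% for phenylalanine.

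**Figure D2:**
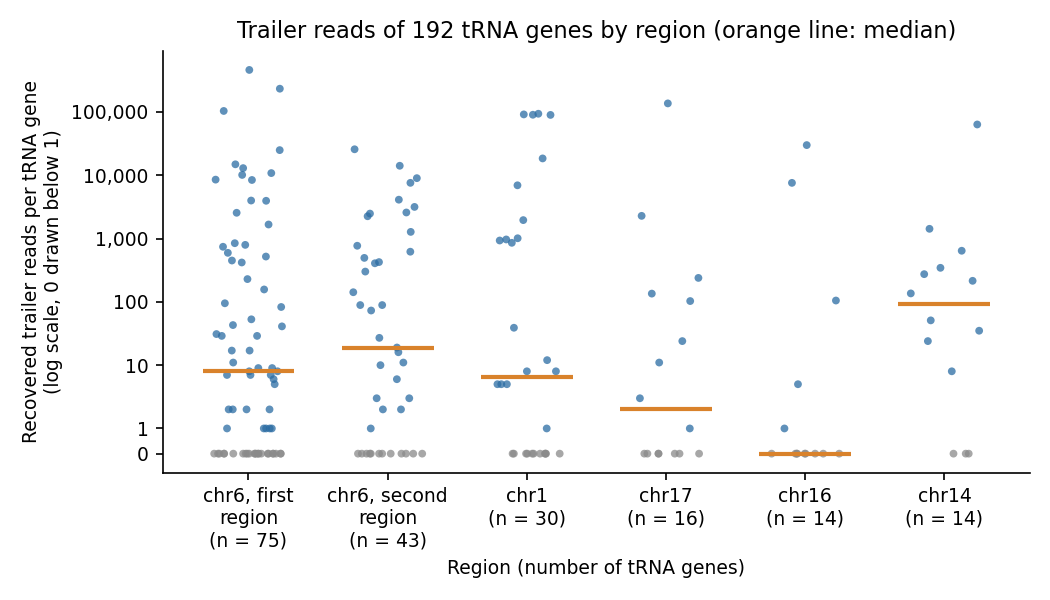
Recovered trailer reads of each of the 192 tRNA genes by region on a log scale, with genes at 0 drawn in grey below 1 and the median of each region as an orange line. In every region the genes span from 0 reads to at least 25,738 reads, and the 4 genes at 89,832 to 93,730 on chromosome 1 are the Gly copies of 1 trailer sequence.

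The regions differed in how many reads they held and in which gene held them. The first chromosome 6 region had 961,694 reads (56.5% of the total, 654 per kb), and its top gene, the first Ile-AAT named above, held 50.7% of its tRNA locus reads. In the second chromosome 6 region there were 85,449 reads (5.02%, 77.0 per kb), spread more evenly, with 32.6% at Thr-CGT (chr6:28615984-28616057, minus strand, 25,738 trailer reads). Reads were densest on chromosome 1, with 400,369 in 240 kb (1668 per kb). Chromosome 17 had 145,475 reads (1322 per kb), chromosome 14 had 71,423 (794 per kb) and chromosome 16 had 38,450 (854 per kb). Each of these last 3 rested on 1 gene: Ser-GCT held 97.8%, Thr-TGT 95.1% and Arg-CCT 78.8% of the locus reads of their regions. The median length of reads followed these genes, with 26 nt on chromosome 17, 18 nt on chromosome 14, 16 nt on chromosome 16 and 15 nt on chromosome 1. Trailers made up 96.0% to 99.8% of tRNA locus reads in each of the 6 regions.

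Genes with the same sequence from first to last base make the same mature tRNA, and differ only in leader and trailer. The 192 genes had 129 distinct sequences, and 29 sets of 2 to 8 identical genes took in 92 genes. In 21 of the 29 sets at least 1 gene had 100 or more trailer reads, and in 16 of these another gene of the set had fewer than 10. Copies of 1 tRNA thus covered the whole range of listed trailer counts. Of all 66 genes with at least 100 trailer reads, 23 had a most abundant species with more than 1 exact match in the genome. Reads of such a species cannot be placed at 1 gene. How far this shaped the spread between copies was not tested. In copies with an early T run, a low count cannot be told apart from trailers under 10 nt, which are not listed. The largest set by reads holds 4 Ile-AAT genes, whose first 35 bases after the gene are shown here to set their T runs side by side. Lower case is used except for the first run of at least 4 T.
Ile-AAT, chr6:27144994-27145067, minus strand: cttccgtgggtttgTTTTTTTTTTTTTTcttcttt
Ile-AAT, chr6:27205350-27205423, minus strand: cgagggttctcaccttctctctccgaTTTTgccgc
Ile-AAT, chr17:8090911-8090984, plus strand: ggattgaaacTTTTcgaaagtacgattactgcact
Ile-AAT, chr6:26554350-26554423, plus strand: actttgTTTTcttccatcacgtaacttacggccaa
In this order the genes had 461,378, 10,826, 11 and 0 trailer reads. The fourth T of the run lies 18, 30, 14 and 10 nt after the gene. The most abundant species of the chromosome 17 gene is 14 nt long and has 28 exact matches, so its reads cannot be placed at this gene. The study states that reads mapping to 1 place were kept, so reads of such short trailers may be missing. This was not tested, and the counts of the last 2 genes cannot be read as low output.

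Other sets showed the same spread. The 2 identical Ser-GCT genes had 136,583 and 89 trailer reads, and the 2 Phe-GAA genes 14,129 and 0. The Phe-GAA gene with 0 reads has a T run from base 4 after the gene. A trailer to the fourth T of that run would be too short to be listed. For 8 identical Asp-GTC genes the highest count was 10,128 and the median 0, but the most abundant species of the highest gene has 5 exact matches in the genome. By contrast, 2 identical Arg-ACG genes had 103,738 and 24,967.

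**Figure D3:**
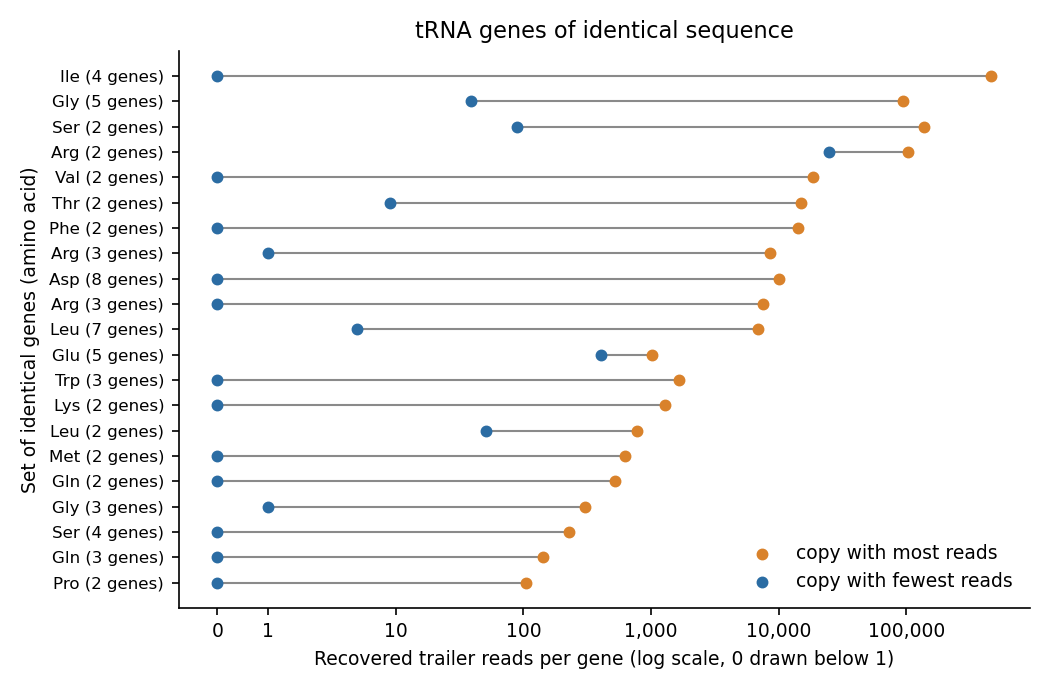
Trailer reads of the gene with the most and the gene with the fewest reads in each of the 21 sets of identical tRNA genes that have a gene with at least 100 reads (log scale, 0 drawn below 1), labelled by amino acid and number of genes. The points of the first Ile set lie at 461,378 and 0. In the Gly set of 5 genes and in the Glu set, 4 copies share a trailer with 4 exact matches, so how their reads were split between copies cannot be read from the points. Other sets, such as Met and Lys, also have a highest gene whose most abundant species has more than 1 exact match.

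The position of the T run moved with the number of trailer reads. The run began a median of 14 nt after the gene in genes with at least 1000 trailer reads (34 of 38 had a run), 12.5 nt with 100 to under 1000 reads, 8.5 nt with 10 to 99, 8 nt with 1 to 9 and 7 nt with none. Counted the other way, 3 of 41 genes whose run began at bases 1 to 6 had at least 100 trailer reads (7.32%). This count was 9 of 60 for bases 7 to 10, 25 of 47 (53.2%) for bases 11 to 14, 10 of 11 (90.9%) for bases 15 to 20 and 13 of 16 (81.2%) for bases 21 to 60. Genes with a run at bases 15 to 20 held 811,258 trailer reads in all, with a median of 8535 reads each. The shortest alignment listed in the values is 10 nt, so a trailer that ends at the fourth T of a run beginning at bases 1 to 6 is too short to be listed, and one with a run at bases 7 to 10 would be 10 to 13 nt. Whether gene activity differs between these groups cannot be told apart from this length limit. Trailers of genes with a run at base 7 or later also passed the selection of inserts of 20 to 40 nt. The study states that reads mapping to 1 place were kept, and short trailers can match many places. The 12-nt species listed at 4 Leu-CAG genes has 45 exact matches. Whether these 2 steps shaped the counts was not tested. These bins were chosen after the values were seen, and the genes are not independent, since copies share sequences and library.

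Leaders were rare. The 1900 leader reads lay beside 100 genes with a median length of 18 nt (quartiles 16 and 22), and 1096 of them (57.7%) ended at the last base before the gene. Reads that run on into the gene would be missing under the same removal, so this share is of reads that stop before the gene. His-GTG at chr6:27125906-27125977 had the most, with 233 leader reads beside 419 trailer reads. Asp-GTC at chr6:27471523-27471594 had 166 leader reads and 0 trailer reads, and Pro-AGG at chr16:3232635-3232706 had 102 and 1. In Ser-GCT at chr17:8090184-8090265 the ratio was the opposite, with 134 leader and 136,583 trailer reads.

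Outside tRNA loci the regions held 67,514 reads (3.96%) in 4904 clusters of overlapping alignments, of which 3113 had 1 read and 330 at least 10. The 5 largest clusters held 45.2% of these reads. They are described in turn, and 3 of their most abundant species are shown because they resemble trailers, with the closing T run in capitals.
chr6:26305690-26305716, minus strand: tcggctttccctgctaactgggcTTTT
chr6:26313335-26313350, minus strand: atggccgcatataTTT
chr6:26330505-26330528, minus strand: gggagcgttttgtggatttgTTTT
The first belongs to the largest cluster (13,432 reads), 5708 nt from the nearest upstream gene of the search. The second (9859 reads) and the third (2397 reads) begin 2 nt and 1 nt after Met-CAT genes that a wider search finds.

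That wider search also accepts A as the first base of the T loop, as in the initiator methionine tRNA, or C before the anticodon. It was added after the values were seen and gave 212 genes, with 11 Ala-AGC and 5 Met-CAT among the 20 added. Of the added genes, 9 had trailer reads, 16,782 in all. Of the remaining clusters, that on chr14:21101337-21101506, held 2622 reads and began downstream of Pro-TGG at chr14:21101165-21101236. The last, with 2206 reads, lay after an added Ala-AGC gene at chr6:26771290-26771362. Of reads outside tRNA loci, 54.8% ended in at least 3 T and the median length was 21 nt (quartiles 17 and 26).

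Other genes of the regions held few reads. The histone genes H2AC12 and H2AC11, which encode core histone H2A, led with 561 and 382 reads on their exons. MIR3143, a microRNA gene, had 66.

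Reads of messenger RNA for the processing machinery were also present, as reads of at least 18 nt per kb of exon. Of 23 genes for tRNA maturation 22 were annotated, all with reads, at a median of 4.37 per kb against 1.28 for all 20,136 protein-coding genes, and 21 were above that median. Having such reads was common, as 14,868 of the 20,136 protein-coding genes had them. POP7, a protein subunit of RNase P, had 20.9 per kb. XPOT, the exporter of tRNA from the nucleus, had 14.2, SSB 10.5 and ELAC2 3.28. All 21 genes for RNA polymerase III and its factors had reads, at a median of 4.05, with 20 above the median of all genes. Among 4 genes for tRNA cleavage, 3 had reads. ANG, the nuclease angiogenin, had 4 reads, its inhibitor RNH1 had 8.14 per kb, and RNASE4 had 0 reads. DICER1 had 1.04 per kb.

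The same search outside the 6 regions, on chromosomes 1 to 22, X and Y, gave 953 further loci with 4,525,662 reads, against 1,634,057 in the 6 regions. The shuffled copy that set the score threshold covered only the length of the 6 regions, 0.0990% of the reference. How many of the 953 loci are chance hits of the search was therefore not measured. Ser-TGA at chr10:69524261-69524342 was the largest of these loci. Without it the loci outside held 988,455 reads, fewer than the 6 regions, and further values without it stand in the same sentences. Trailers made up 96.7% there (85.0% without this gene), compared with 99.3% in the 6 regions. Leaders made up 2.83% (12.9% without it), compared with 0.116%, and 125,910 of the 127,997 leader reads outside lay at His-GTG genes. The median trailer length was 19 nt with and without it, compared with 17 nt. Trailers that start at the first base after the gene made up 89.2% (59.95% without it), compared with 50.1%. The 6 regions held 27.1% of the trailer reads of all loci found, or 65.9% without this gene. All values without Ser-TGA are 1-sided. The 6 regions kept their own top gene, Ile-AAT, with 28.4% of their trailer reads. With 1 pooled sample no test of these differences was possible.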

How the data were processed

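Small RNA of 3 K562 batches was sequenced by the authors, aligned to GRCh37 (hg19) with Bowtie2 2.2.9 per the labels and the methods of the study, and pooled. The deposited table gives, for each unique alignment, its start and end, a read count and an RPKM made by the authors. Deposited RPKM equals the deposited count divided by length and by 54,140,681 reads. For 1,246,133 of 1,246,133 alignments with a near neighbour (total end shift at most 3 nt) the count was a whole multiple of the number of neighbours, and was divided by it.

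tRNA genes were searched on both strands by acceptor, D, anticodon and T stems. A shuffled copy of the regions gave 1 hit at the score threshold of 21 of 28, where the regions gave 192. The search misses genes: on chromosome 6, RefSeq (GRCh38) lists 155 tRNA genes, and the search found 117 at a score of at least 25, or 142 with the wider search. RefSeq names were not assigned. Other genes came from GENCODE release 44 on GRCh37.

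Named were the 10 genes with the most trailer reads, up to 5 with the most 5′ end and 3′ end reads (1 gene had any 5′ end and 0 any 3′ end reads), the top gene of each region, the 5 largest clusters outside tRNA loci and members of fixed lists. Leader genes, identical copies, smaller examples and other genes of the regions were chosen after their values were seen. The members and lists were chosen with earlier results of these data known. No comparison had replicates, so shares carry Wilson 95% intervals and no p-value was computed. Computations were made with numba 0.67.0, pandas 2.3.3, scipy 1.17.1 and numpy 2.4.6 on Python 3.11.15, and figures with matplotlib 3.10.9. The near neighbour count, the tRNA gene search and the count of exact matches were tested on simulated data.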

Additional observations from a re-analysis of the deposited data

How the results depend on the processing

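Pooling left no replicate to set aside. No paired analysis was possible because the pooled column carries no replicate number. Of 51 alternative values, 23 lay within the counting interval of the value given in the report and 28 did not. The share of all reads in the 6 regions was 3.498% with deposited reads, 3.76% with at least 2 recovered reads, 2.04% at 18 nt or longer and 2.60% without the Ile-AAT gene of most trailer reads. It was not run for sequences with 1 exact match, as matches were counted in the regions only. The share of region reads on tRNA loci was 97.0% with deposited reads, 96.4% with at least 2 reads, 93.7% at 18 nt or longer, 95.8% for 1 exact match, 76.6% with a flank of 20 nt, 96.3% with a flank of 100 nt, 97.0% with the wider search and 94.5% without the top gene. The trailer share of locus reads fell to 49.7% with no tolerance at the gene end, since the second start position is then left out. Under the other settings it was 99.4% with deposited reads, 99.4% with at least 2 reads, 98.7% at 18 nt or longer, 99.2% for 1 exact match, 99.5% with a tolerance of 5 nt, 99.3% with the wider search and 99.04% without the top gene. The 5′ end share was 0.00632% with deposited reads, 0% at 18 nt or longer and for 1 exact match, and 0.0188% without the top gene. The median length of region reads was 20 nt at 18 nt or longer, which removes shorter reads by construction, and 18 nt for 1 exact match, and that of trailers 19 nt and 18 nt. The wider search and the removal of the top gene were chosen after seeing the data.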
